A study of Mus musculus with 2 samples.

Results

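Interferon-stimulated genes are the genes that cells switch on when interferons bind their receptors. Here 38 of them, taken from a list of standard members of the response, were followed across the immune cells of the mouse colon. The list holds transcription factors of the response, sensors of foreign nucleic acid, antiviral enzymes, interferon-inducible GTPases and a few members whose role is less well defined. The expression table covered 32285 genes and had a row for 37 of the 38; Mx1 was not analysed here. The list was not chosen from measured values, although it was drawn up with earlier results of these data known.

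The cells were live CD45+ leukocytes sorted from the colon lamina propria of female mice aged 9 months, profiled by 10x Genomics 3' single-cell RNA sequencing. The 5XFAD group carries human amyloid precursor protein and presenilin transgenes with familial Alzheimer disease mutations, expressed from the neuron-directed Thy1 promoter, and the WT group consisted of littermates. Each genotype was a pool of 3 mice sequenced as 1 library. There is thus no replicate in either genotype, no test between them was possible, and every 95% interval below covers counting error only. Differences between mice or preparations are not covered. Intervals of levels and ratios treat transcript counts as independent, so the spread between cells is not covered either.

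Each library held 3443 cells, with 18604847 unique molecular identifiers (UMIs, 1 per captured transcript) in 5XFAD and 17939499 in WT, and 3 cell barcodes occurred in both. The deposited clusters, numbered 0 to 16, carry no cell type names. Clusters 0 to 5 carried B cell markers and are called B cell-like: they held 2364 cells in 5XFAD and 2538 in WT, and the summed level of 7 B cell markers was 5372 CPM (counts-per-million, scaled by all UMIs of the sum) in the former and 5657 CPM in the latter. Clusters 8 to 14 and 16 carried T cell or innate lymphoid markers and are called T and innate lymphoid: they held 755 and 628 cells, and the summed T cell markers measured 3265 and 3033 CPM there, against 17.4 and 19.2 CPM in the B cell-like class. Within that class, clusters 8, 10, 11, 13 and 14 are T clusters and 9, 12 and 16 innate ones. Clusters 6, 7 and 15 are described by number; cluster 15 was led by myeloid genes such as Lyz2, Il1b and C1qb. B cell markers in the T and innate lymphoid class were higher in WT (189 CPM) than in 5XFAD (56.1 CPM), and 31 of its WT cells but 6 of its 5XFAD cells had UMIs of 2 or more of Cd79a, Cd79b and Ms4a1; these cells were not removed as doublets. No 5XFAD cell but 106 WT cells had 2500 or more genes detected.

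Interferons reach these genes by 2 main routes. Type I and type III interferons, made by many cells after viral or bacterial sensing, activate a complex that includes STAT2 and IRF9 and binds the interferon-stimulated response element (ISRE). Interferon gamma, made by T cells and innate lymphocytes, acts through the gamma-activated sequence (GAS). In the gut the response is known to set a resting antiviral state in the mucosa, and individual leukocyte types are known to hold different baseline levels of it.

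The promoters of the members were scanned for the letters of these elements. RefSeq promoters on GRCm38.p6, running from 250 bases before to 50 bases after a transcription start, were given for 29 of the 38 members. The ISRE core was searched as GAAA, any 2 bases and GAAA again, on both strands, and GAS as TTCNNNGAA, which reads the same on both strands; ISRE and GAS matches share no letters in the 4 promoters below. An ISRE core was present for 17 of the 29 members, 58.6%, against 3.99% of 27025 genes. GAS letters were present for 10 members, 34.5%, against 9.55% of genes, and 22 members had at least one of the 2 motifs. A match is a description of these windows and not evidence of a bound site. The following 4 promoters, of genes whose values are given in full below, show 4 arrangements: overlapping ISRE cores, an ISRE core beside a GAS match, a GAS match alone and 1 ISRE core alone. They were chosen after their values were seen; capitals mark the ISRE and GAS matches, and each is printed 5' to 3' on the strand of its gene.
Isg15, chr4:156200769-156201068, minus strand: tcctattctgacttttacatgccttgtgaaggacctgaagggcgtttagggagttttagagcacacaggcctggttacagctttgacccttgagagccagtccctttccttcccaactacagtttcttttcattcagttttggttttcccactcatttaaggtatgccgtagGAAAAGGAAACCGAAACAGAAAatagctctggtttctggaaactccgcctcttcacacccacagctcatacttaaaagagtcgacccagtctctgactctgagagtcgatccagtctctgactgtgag
Igtp, chr11:58199306-58199605, plus strand: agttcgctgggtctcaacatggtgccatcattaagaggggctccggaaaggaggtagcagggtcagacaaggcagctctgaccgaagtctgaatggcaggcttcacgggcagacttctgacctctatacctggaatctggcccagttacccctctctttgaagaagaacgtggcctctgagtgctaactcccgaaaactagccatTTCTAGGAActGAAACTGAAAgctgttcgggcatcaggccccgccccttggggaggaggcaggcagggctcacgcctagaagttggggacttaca
Irf1, chr11:53769764-53770063, plus strand: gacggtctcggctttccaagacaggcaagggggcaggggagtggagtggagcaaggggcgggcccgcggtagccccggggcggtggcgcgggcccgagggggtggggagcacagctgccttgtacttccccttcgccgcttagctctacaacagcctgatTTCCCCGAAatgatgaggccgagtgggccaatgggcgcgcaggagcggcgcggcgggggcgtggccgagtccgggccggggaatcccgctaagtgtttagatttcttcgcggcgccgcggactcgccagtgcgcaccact
Ifi203, chr1:173942443-173942742, minus strand: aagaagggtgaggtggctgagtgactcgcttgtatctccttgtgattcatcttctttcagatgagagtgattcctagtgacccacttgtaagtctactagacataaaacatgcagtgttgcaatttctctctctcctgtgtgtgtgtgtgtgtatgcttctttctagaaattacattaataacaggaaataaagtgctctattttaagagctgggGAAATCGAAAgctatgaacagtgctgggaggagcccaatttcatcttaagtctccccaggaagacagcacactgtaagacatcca
Isg15 had 3 overlapping ISRE cores in 1 run, starting 78, 72 and 66 bases upstream of the start. Igtp had a GAS match and an ISRE core next to each other, starting 45 and 34 bases upstream. Irf1 had a GAS match and no ISRE core, and Ifi203 had 1 ISRE core starting 35 bases upstream and no GAS match. Ifi203 and Irf1 each have a second listed promoter without a match of either kind.

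The members stood much lower in B cell-like cells than in T and innate lymphoid cells of the same library. Summed over the 37 members, the level was 592 CPM in 5XFAD and 786 CPM in WT in the B cell-like class, against 1286 and 1335 CPM in the T and innate lymphoid class. In sums over cells of this kind, fewer expressing cells and less RNA per cell cannot be told apart. A gene was counted as called past a 1.5-fold ratio, with at least 50 UMIs over the 2 sums compared. Of 23 members with enough UMIs in 5XFAD, 17 were lower in B cell-like cells and 0 were higher, beside 24.3% and 20.5% of all genes. Of 27 in WT, 17 were lower and 2 higher, beside 21.3% and 20.7%. The median log2 ratio of these members was -0.97 in 5XFAD and -1.01 in WT, where all genes stood at 0.00 and 0.03. Of 23 members with enough UMIs in both libraries, 14 were lower past 1.5-fold in both and 0 were higher in both. Of these 23, 7 had intervals wholly beyond 2-fold lower in both libraries: Isg15, Irf1, Irf7, Ifi47, Gbp2, Gbp7 and Igtp. Ifit1, Ifit3, Ifih1, Oas3 and Rsad2 had such intervals too, but fewer than 50 UMIs in at least 1 library. All T and innate lymphoid UMIs of Ifit3 lay in the 5 cells that are left out below. For Ifit1 the shares were 73.9% in 5XFAD and 57.7% in WT, and for Rsad2 2.70% and 60%. A small number of T and innate lymphoid cells, described further on, carry part of this contrast: without 5 such cells the WT median was -0.51 with 12 of 25 members lower, and the 5XFAD median was -0.86 with 15 of 23 lower.

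**Figure D1:**
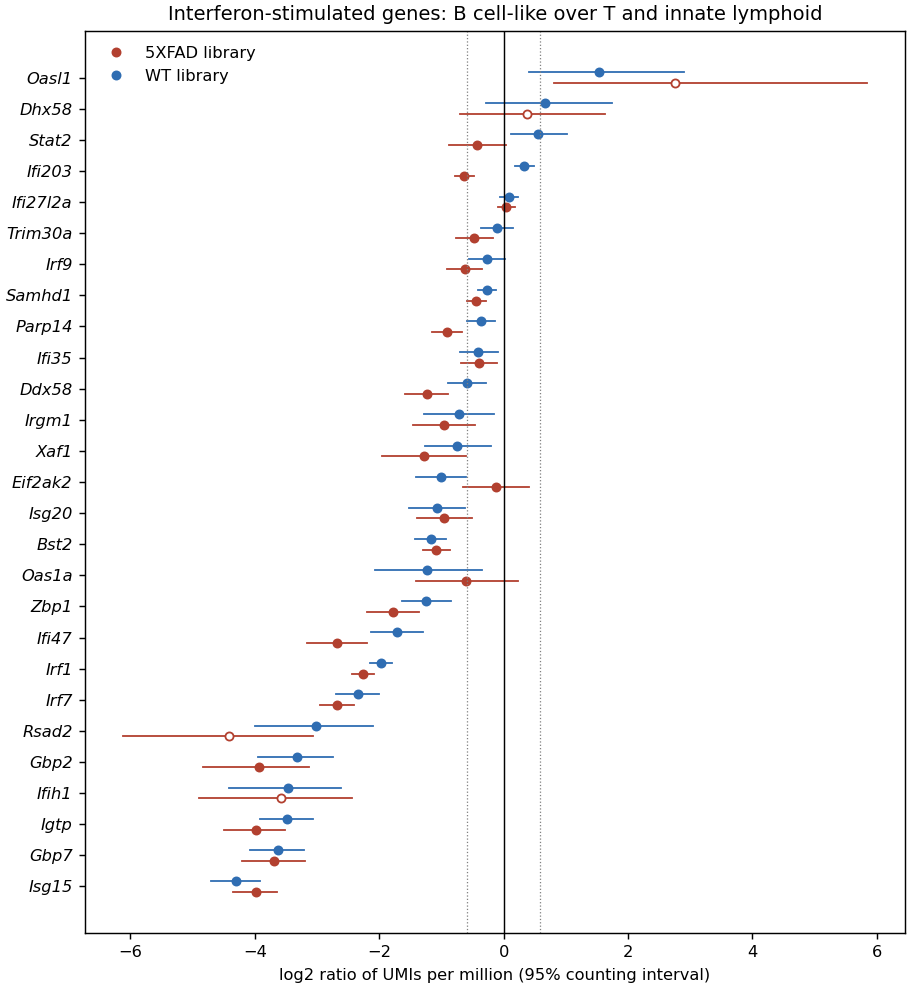
Log2 ratio of CPM in B cell-like over T and innate lymphoid cells for each member with at least 50 UMIs in either library (5XFAD red, WT blue; open points have fewer than 50 UMIs; bars are 95% counting intervals; dotted lines mark 1.5-fold). Isg15, Gbp7, Igtp and Gbp2 lie beyond 8-fold lower in both libraries, Ifi27l2a lies at 0, and Stat2 and Ifi203 lie on opposite sides of 0 in the 2 libraries.

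Among the members with at least 50 UMIs in both libraries, Isg15, which encodes a ubiquitin-like protein conjugated to other proteins during the response, had the widest gap in WT and in 5XFAD a gap level with that of Igtp. Ifit1, with fewer UMIs, had 3 in B cell-like cells against 46 in 5XFAD and 1 against 26 in WT. Isg15 measured 6.54 CPM in 5XFAD and 5.29 CPM in WT in the B cell-like class, and 104 CPM in both libraries in the T and innate lymphoid class. The B cell-like level was 15.8-fold lower in 5XFAD (log2 ratio -3.99, interval -4.35 to -3.64) and 19.7-fold lower in WT (-4.30, -4.70 to -3.92). Without the 5 cells rich in members, the T and innate lymphoid level was 95.8 CPM in 5XFAD and 84.3 CPM in WT. When each cell was thinned to 3000 UMIs to equalise depth, a UMI of Isg15 was found in 1.76% of 5XFAD and 1.39% of WT B cell-like cells, against 19.9% and 16% of T and innate lymphoid cells. These B cell shares are low but above the share of the T cell gene Cd3e in the same cells, 0.13% and 0.41%, which marks the level left by free RNA and stray cells. The unthinned median depths of the B cell-like class were 5087 and 4784 UMIs and those of the T and innate lymphoid class 5559 and 5767 UMIs. Usp18, the protease that removes ISG15, had at most 8 UMIs in either class and library and gave no ratio.

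The GTPases of the list, which act on the vacuoles of intracellular pathogens and are known targets of interferon gamma, were lower in B cell-like cells throughout. All 5 passed the UMI minimum in both libraries, and all 5 were called lower in both. Igtp measured 3.47 and 4.89 CPM in B cell-like cells of 5XFAD and WT, against 54.9 and 54.6 CPM in the T and innate lymphoid class, which is 15.8-fold and 11.2-fold lower. Gbp7 measured 3.31 and 4.58 CPM against 42.6 and 56.8 CPM, 12.9-fold and 12.4-fold lower. Gbp2 measured 1.21 and 2.53 CPM against 18.5 and 25.4 CPM, on 15 and 32 B cell-like UMIs. Ifi47 was 6.37-fold lower in 5XFAD and 3.29-fold lower in WT. The smallest gap of the group was that of Irgm1, 1.95-fold and 1.65-fold. Guanylate-binding proteins share much of their sequence, as do the Ifi200 and the OAS genes, so the split of reads between their copies is uncertain.

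Among the transcription factors, the interferon regulatory factors Irf1 and Irf7 were low in B cell-like cells, whereas Irf9 and Stat2, whose products are parts of the ISRE-binding complex, had smaller ratios. Irf1 measured 33.8 and 41.2 CPM in B cell-like cells against 162 and 162 CPM, 4.80-fold and 3.92-fold lower. Irf7 measured 13 and 9.63 CPM against 83.0 and 48.8 CPM, 6.38-fold and 5.07-fold lower. This gap was not even over the T and innate lymphoid clusters. With both libraries summed, Irf7 measured 233, 118 and 93.2 CPM in clusters 13, 12 and 10. It measured 30.3 CPM in cluster 11 and less in the others, with a median of 18.0 CPM over all clusters. Irf9 was lower past 1.5-fold in 5XFAD, with a log2 ratio of -0.63 (-0.90 to -0.35), and measured -0.27 in WT, with an interval reaching 0.02. Stat2 was lower in B cell-like cells of 5XFAD by -0.43, with an interval from -0.88 to 0.03, and higher in those of WT by 0.56, with an interval from 0.13 to 1.02. The change of side came from the B cell-like class, where Stat2 measured 10.6 CPM in 5XFAD and 20.9 CPM in WT, while its level in T and innate lymphoid cells was 14.3 and 14.2 CPM.

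The sensors were mixed. Ddx58, which encodes the RNA sensor RIG-I, was lower in B cell-like cells by log2 ratios of -1.24 and -0.59, and Zbp1, a sensor of left-handed nucleic acid that can trigger cell death, by -1.78 and -1.24. Ifih1, which encodes the long double-stranded RNA sensor MDA5, had 8 and 15 UMIs in B cell-like cells against 33 and 48 in the smaller T and innate lymphoid class; its WT ratio was -3.47. Ifi203, an Ifi200 family member with a DNA-binding domain, changed side in the same way as Stat2, at -0.63 in 5XFAD and 0.33 in WT, and both intervals lay clear of 0. Dhx58, the third RIG-I-like receptor, was 0.38 and 0.66, with both intervals spanning 0. Ifi204 had 3 UMIs or fewer in each class and library.

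The antiviral effectors Samhd1, a nucleotide hydrolase that starves retroviruses of building blocks, and Trim30a differed little between the classes: Samhd1 was lower in B cell-like cells by -0.44 and -0.27 and Trim30a by -0.47 and -0.11. Bst2, the tetherin that holds budding virions at the cell surface, was lower by -1.08 and -1.17, and the exonuclease Isg20 by -0.96 and -1.07. Ifi27l2a stood out as level between the classes: it measured 144 and 148 CPM in B cell-like cells and 140 and 139 CPM in T and innate lymphoid cells, with ratios of 0.04 and 0.09 whose intervals spanned 0. Parp14, a mono-ADP-ribosyltransferase, was lower by -0.91 and -0.36. Oasl1, an OAS-like protein known to restrain translation of Irf7 mRNA, was higher in B cell-like cells. It had 39 UMIs there and 2 in T and innate lymphoid cells of 5XFAD, and 70 against 7 in WT. The WT ratio of 1.53 had an interval from 0.41 to 2.90. Oasl1 and Dhx58 were the 2 members called higher in WT, where the interval of Dhx58 spanned 0. The RNA-activated kinase gene Eif2ak2 measured 9.21 and 11 CPM in B cell-like cells against 10.0 and 22.1 CPM, so its gap was present in WT (-1.01) and not resolved in 5XFAD (-0.13, -0.65 to 0.41).

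**Figure D2:**
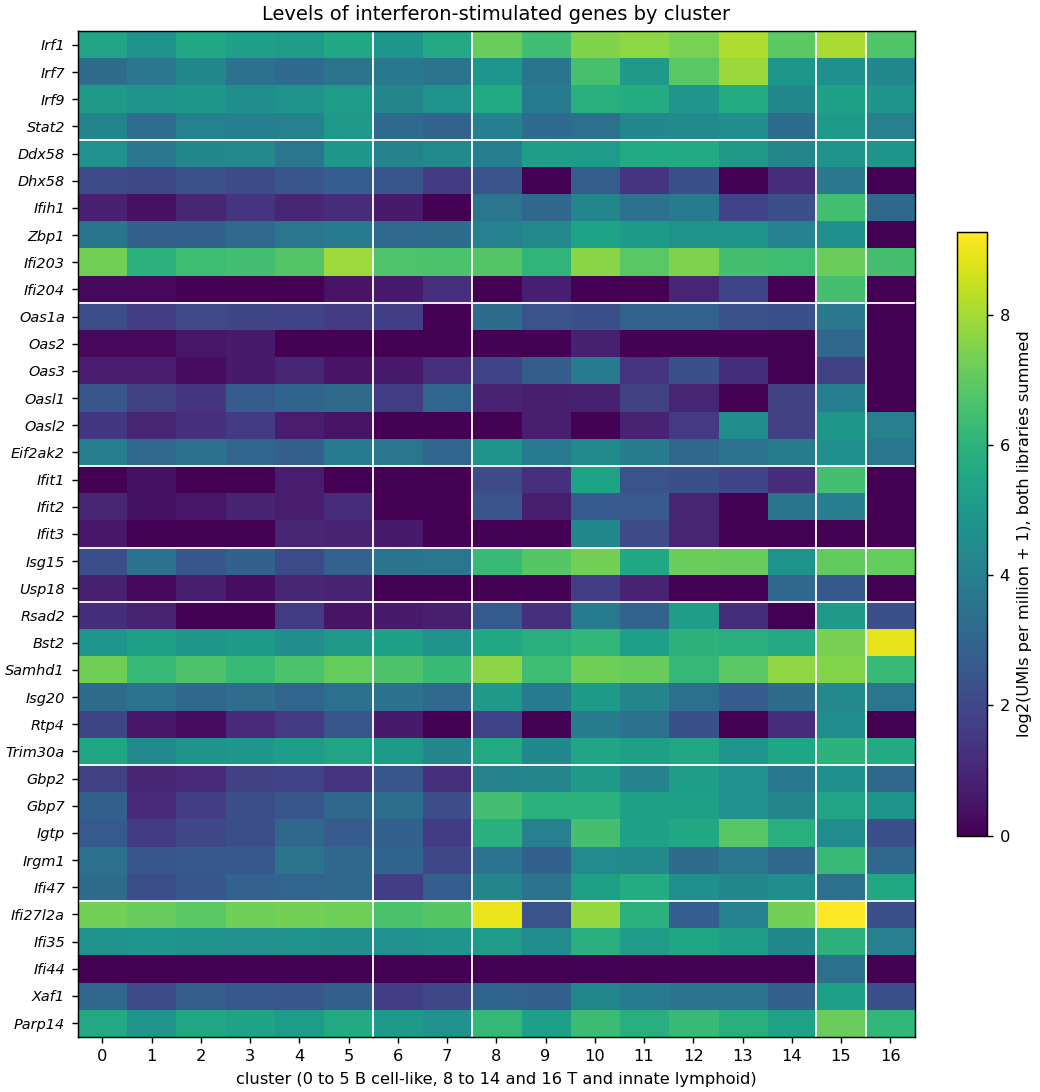
Level of each member in each cluster, as log2(CPM + 1) with both libraries summed; white lines separate role groups and cell classes. Isg15 and Irf1 are darker across clusters 0 to 7 and brighter across 8 to 14, and Igtp, Gbp2, Gbp7 and Ifi47 are brighter in most of the latter. Irf7 is brightest in clusters 10, 12 and 13, and Irgm1 in cluster 15. Ifi27l2a is bright in the B cell-like clusters and in clusters 8, 10, 14 and 15.

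Within the T and innate lymphoid class the members differed widely between clusters, and no single cluster led for all. Over the 17 clusters with both libraries summed, 18 of the 37 members were highest in cluster 15, 6 in cluster 10, 3 in cluster 13 and 1 in a B cell-like cluster; several of these tops rest on few UMIs. Cluster 10, led by the T cell genes Cd40lg, Il17a and Cd5, had the top of Isg15 (161 CPM), but 62 and 34 of its 212 UMIs lay in 2 of the 5 cells rich in members that are described further on; without these 5 it measured 89.1 CPM and cluster 12 was highest, at 144 CPM. Cluster 13, led by the gamma delta T cell genes Trdc and Trdv4, had the tops of Irf1 (285 CPM), Irf7 (233 CPM) and Igtp (116 CPM). Cluster 8, led by the regulatory T cell genes Foxp3 and Ctla4, had the tops of Gbp7 (90.0 CPM) and Eif2ak2 (27.1 CPM). Cluster 12, led by Gzmb and Prf1, had the tops of Gbp2 (34.5 CPM) and Rsad2 (35.4 CPM). Without the cell of each cluster with most UMIs of the gene, these measured 25.0 and 11.5 CPM, and clusters 10 (26.7 CPM) and 15 (22.1 CPM) were the highest. Under the same change the tops of Irf1, Irf7, Igtp, Gbp7, Eif2ak2 and Bst2 stayed in their clusters. Cluster 16, led by Il22, had the top of Bst2, at 485 CPM with an interval from 404 to 577, against 163 CPM in the next cluster and a median of 38.9 CPM over all clusters. The intervals of Isg15 overlapped between clusters 10, 12, 13, 15 and 16, so those neighbours in the order were not separated beyond counting error.

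Ifi27l2a, a small hydrophobic protein of the interferon response, was high in some lymphocyte clusters and near 0 in others. It measured 515 CPM in cluster 8, 224 CPM in cluster 10 and 160 CPM in cluster 14, but 15.9 CPM in cluster 13, 5.69 CPM in cluster 12, 4.20 CPM in cluster 9 and 3.85 CPM in cluster 16. The B cell-like clusters lay between, at 118 to 161 CPM. Summed over the T clusters it measured 211 CPM in 5XFAD and 209 CPM in WT, against 2.75 and 7.05 CPM in the innate clusters, so the ratio was 6.26 and 4.89 on the log2 scale. The 5XFAD innate sum rests on 4 UMIs and the WT one on 9. In the comparison of T with innate clusters 7 of 20 members in 5XFAD and 9 of 20 in WT were higher in T clusters past 1.5-fold, beside 16.7% and 17.7% of all genes, and 1 was lower in each, beside 10.6% and 10.8%. The one lower in both was Bst2, at -0.93 and -0.99. With both libraries summed, Bst2 measured 485 CPM in innate cluster 16. It measured 63.2 CPM in innate cluster 12 and 69.0 CPM in T cluster 10. Irf9 (1.29 and 1.21), Samhd1 (1.20 and 0.97) and Igtp (1.42 and 1.49) were higher in T clusters in both libraries.

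The members also varied among the B cell-like clusters. Ifi203 measured 242 CPM in cluster 5, whose leading genes include the heat shock genes Hspa1a and Hspa1b, and 156 CPM in cluster 0, against 60.9 CPM in cluster 1, and the intervals of the 3 levels did not overlap. Isg15 ran from 3.33 CPM in cluster 4 to 10.0 CPM in cluster 1, below every T and innate lymphoid cluster. Pairs of members followed each other over the 17 clusters to different degrees. The most alike were Isg15 with Bst2 (Spearman correlation 0.88), Gbp2 with Igtp (0.87) and Gbp2 with Gbp7 (0.86), described over 17 clusters that share their libraries.

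Between the genotypes, the members were lower in 5XFAD than in WT in the B cell-like class and close to level in the T and innate lymphoid class. In the B cell-like class 24 members had enough UMIs; 9 were lower in 5XFAD past 1.5-fold, beside 15% of all genes, and 0 were higher, beside 4.62%. Their median log2 ratio was -0.48, while all genes had a median of -0.12, so the median relative to all genes was -0.36. The intervals of 13 members lay below 0, as did those of 35.5% of all genes, and those of 2 above 0, as did 19.4%. In the T and innate lymphoid class 25 members had enough UMIs; 2 were lower, beside 8.47% of all genes, and 2 were higher, beside 4.16%, with a median of 0.00 against -0.07 for all genes. Longer genes were lower in 5XFAD in both classes, with Spearman correlations across genes of -0.42 and -0.44 between ratio and transcript length, where genes are not independent replicates. Centred within 10 groups of transcript length, the B cell-like median was -0.34 with 7 members lower. The part of transcript length in these ratios was not tested further. Cluster 5 held 119 cells in 5XFAD and 396 in WT; without it the median was -0.39 and 9 members were again lower, beside 13.9% of genes, with 0 higher, beside 4.34%.

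**Figure D3:**
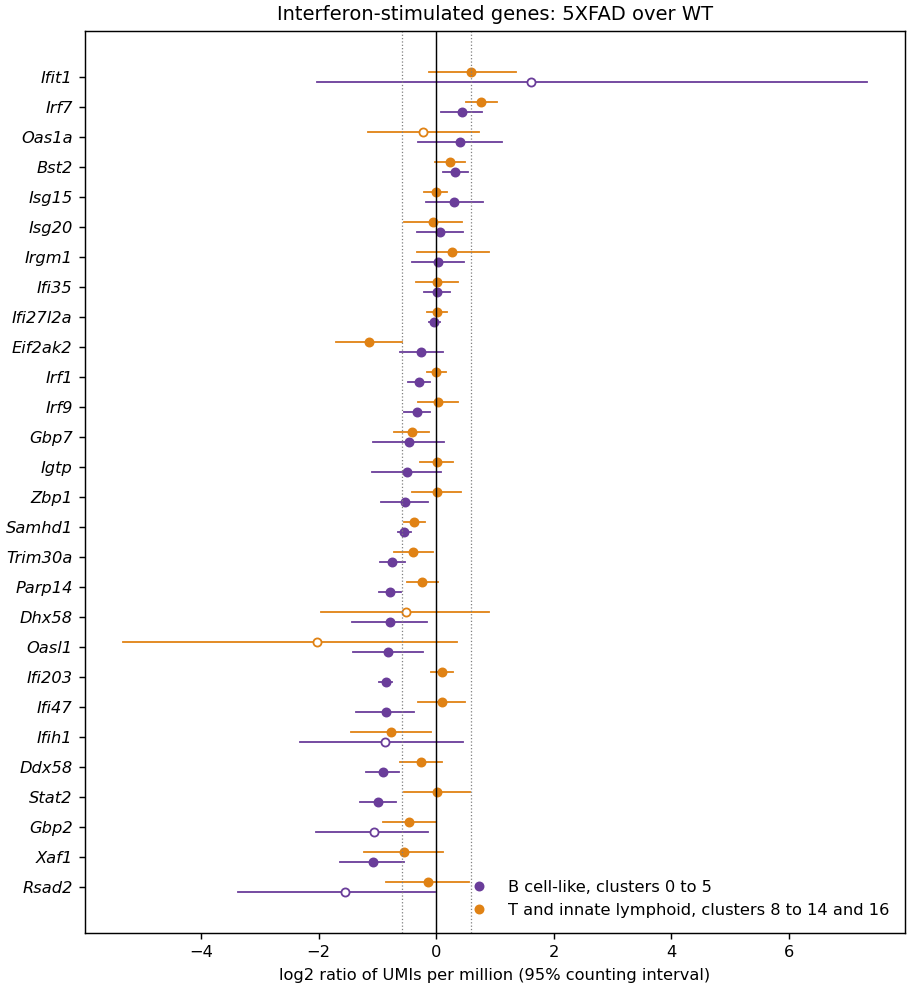
Log2 ratio of CPM in 5XFAD over WT for each member with at least 50 UMIs in either class (B cell-like purple, T and innate lymphoid orange; open points have fewer than 50 UMIs; bars are 95% counting intervals; dotted lines mark 1.5-fold). Stat2, Ddx58, Ifi203 and Ifi47 lie left of 0 in B cell-like cells and at or near 0 in the other class, Irf7 lies right of 0 in both, and Eif2ak2 lies left of 0 mainly in T and innate lymphoid cells.

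Of the 9 members lower in B cell-like cells, Ifi203 had the most UMIs. It measured 81.5 CPM in 5XFAD and 147 CPM in WT, on 1009 and 1866 UMIs, a log2 ratio of -0.85 with an interval from -0.97 to -0.74. The WT level was the higher in each of clusters 0 to 7, with ratios from -1.33 in cluster 7 to -0.35 in cluster 2 and each interval below 0. After thinning to 3000 UMIs it was detected in 19.9% of the 5XFAD and 31.0% of the WT cells of this class. In T and innate lymphoid cells it measured 126 and 117 CPM, a ratio of 0.10, and the difference between the 2 classes in the genotype ratio was -0.96, with a counting interval from -1.17 to -0.74. The mean of the ratios of the 6 B cell-like clusters was smaller in size than the ratio of the sums, at -0.59, and the ratio without cluster 5 was -0.75.

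Stat2 measured 10.6 CPM in 5XFAD and 20.9 CPM in WT in B cell-like cells, a ratio of -0.98 (-1.30 to -0.68), and 14.3 and 14.2 CPM in T and innate lymphoid cells. Its intervals lay below 0 in clusters 0, 1 and 5 taken alone. The sensor Ddx58 measured 13.1 and 24.5 CPM in B cell-like cells, a ratio of -0.90 (-1.19 to -0.62), and 30.9 and 36.8 CPM in the other class. Parp14 measured 29.4 and 50.7 CPM in B cell-like cells, a ratio of -0.79 (-0.97 to -0.60), and its interval lay below 0 in each of clusters 0 to 5. Ifi47 measured 4.44 and 8.05 CPM (-0.86), Xaf1, which encodes an apoptosis-linked factor, 3.47 and 7.34 CPM (-1.08) and Trim30a 24.0 and 40.2 CPM (-0.74). Dhx58 and Oasl1 were lower by -0.79 and -0.81 on 34 against 60 and 39 against 70 UMIs. Samhd1 was lower in both classes, by -0.54 on 87.3 against 127 CPM in B cell-like cells and by -0.37 on 118 against 153 CPM in T and innate lymphoid cells.

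Of 21 members with enough UMIs in both classes, the difference between the classes in the genotype ratio had a counting interval clear of 0 for Ifi203, Stat2 (-0.99), Ifi47 (-0.95), Ddx58 (-0.65), Parp14 (-0.55) and Irf1 (-0.29), each lower in B cell-like cells. Eif2ak2 was the one member with the opposite sign. It measured 9.21 and 11 CPM in B cell-like cells and 10.0 CPM in 5XFAD against 22.1 CPM in WT in T and innate lymphoid cells, where the ratio was -1.14 (-1.70 to -0.59).

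Irf7, the factor that amplifies type I interferon production, went the other way in both classes. It measured 13 CPM in 5XFAD and 9.63 CPM in WT in B cell-like cells, a ratio of 0.43 (0.09 to 0.78), and 83.0 and 48.8 CPM in T and innate lymphoid cells, a ratio of 0.77 (0.50 to 1.03). By cluster the 5XFAD level was higher in cluster 12 (158 against 72.0 CPM), cluster 13 (262 against 186 CPM) and cluster 10 (110 against 73.5 CPM), and in cluster 2 of the B cell-like class (23.9 against 11.9 CPM). In cluster 12, 21 of the 88 5XFAD UMIs came from 1 cell. Bst2 was higher in B cell-like cells of 5XFAD by 0.33 (0.12 to 0.53). Among the members with enough UMIs in both classes, Isg15, Isg20, Igtp, Irgm1, Ifi35 and Ifi27l2a had intervals that spanned 0 in both. Ifi27l2a, at 144 and 148 CPM in B cell-like cells, had the narrowest of these, from -0.13 to 0.06.

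**Figure D4:**
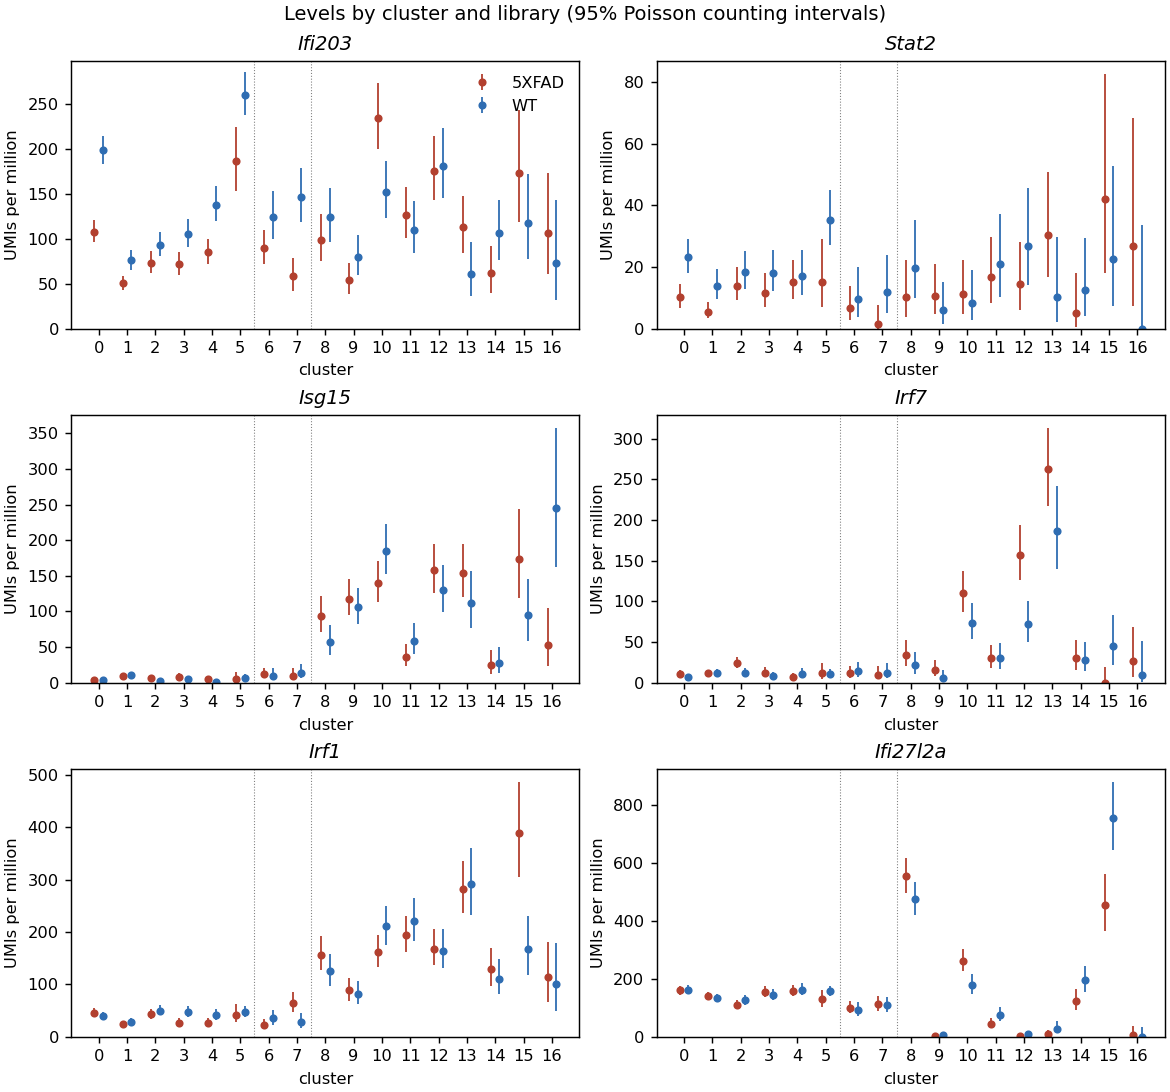
Level in CPM of 6 members in each cluster (5XFAD red, WT blue; bars are 95% Poisson counting intervals; dotted lines separate clusters 0 to 5, 6 to 7 and the rest). Ifi203 is lower in 5XFAD in each of clusters 0 to 7 and higher in cluster 10, Irf7 is higher in 5XFAD in clusters 10, 12 and 13, and Ifi27l2a is near 0 in clusters 9, 12, 13 and 16.

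Several members differed in opposite directions in different clusters. Ifi203 was higher in 5XFAD in cluster 10 (235 against 152 CPM) and in cluster 13 (113 against 60.9 CPM). Cluster 10 as a whole had 4 of 16 members higher past 1.5-fold, beside 6.9% of genes, and 0 lower, beside 11.4%. This count turned on single cells: without the 5 cells rich in members, 0 of 13 were higher, although Ifi203, at a ratio of 0.54 instead of 0.63, and Ifi27l2a, at 0.43 instead of 0.56, kept their direction. In cluster 4, by contrast, 6 of 9 members were lower, beside 14.7% of genes, and 0 were higher, beside 6.74%.

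Single cells that carried most of the programme at once were rare. Without thinning, 5 of 6886 cells had UMIs of 19 or more of the 37 members, a number chosen after the values were seen because the next cells had 16. All 5 were T and innate lymphoid cells, in which the median was 4 members in both libraries. Of these, 1 was a 5XFAD cell in cluster 10, with 29 members and 232 member UMIs; 4 were WT cells, in clusters 10, 11, 11 and 12, with 31, 27, 19 and 23 members. The WT cell of cluster 10 held 62 UMIs of Isg15, 13 of Ifit3 and 9 of Ifit1, and the 5XFAD cell held 34 of Isg15, 12 of Ifit3 and 34 of Ifit1. Member UMIs made up 2.35% and 2.55% of all UMIs in these 2 cells. The 4 cells with 16 members were 3 in cluster 15 and 1 in cluster 4.

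The IFIT family, whose proteins bind viral RNA, had few UMIs, and the share of them in such cells differed by gene. Ifit3 had 12 UMIs in T and innate lymphoid cells of 5XFAD and 18 in those of WT, and all of them lay in the 5 cells. Ifit1 had 46 UMIs in 5XFAD, of which 34 lay in 1 cell, and 26 in WT, of which 15 lay in 3 of the 5 cells. Ifit2 had 12 UMIs in 5XFAD and 17 in WT, of which 1 and 2 lay in the 5 cells. The genotype ratio of Ifit1 in the T and innate lymphoid class, 0.60 with an interval from -0.12 to 1.35, became -0.10 without the 5 cells. In cluster 10 the Ifit1 ratio of 1.17 became -0.47. Rsad2, the antiviral enzyme viperin, had 37 UMIs in T and innate lymphoid cells of 5XFAD, 25 of them in a single cell of cluster 12 that was not among the 5, and 35 in WT, of which 21 lay in the 5 cells. Ifit1, Ifit2 and Ifit3 had at most 14 UMIs each in the B cell-like class of either library.

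Counted per cell after thinning to 3000 UMIs, B cell-like cells had on average 1.44 members detected in 5XFAD and 1.88 in WT. T and innate lymphoid cells had 2.75 and 2.83. No member was detected in 23.4% of 5XFAD B cell-like cells (interval 21.7 to 25.2) and in 16.2% of WT ones (14.8 to 17.7), and 5 or more members in 2.02% and 4.89%. In the T and innate lymphoid class 5 or more were detected in 14.4% and 14.7% of cells. Thinning left out 37 5XFAD and 84 WT B cell-like cells and 18 and 29 of the other class. The B cell-like means were lower in 5XFAD in each of clusters 0 to 5, from 1.29 against 1.46 in cluster 1 to 1.63 against 2.35 in cluster 5.

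**Figure D5:**
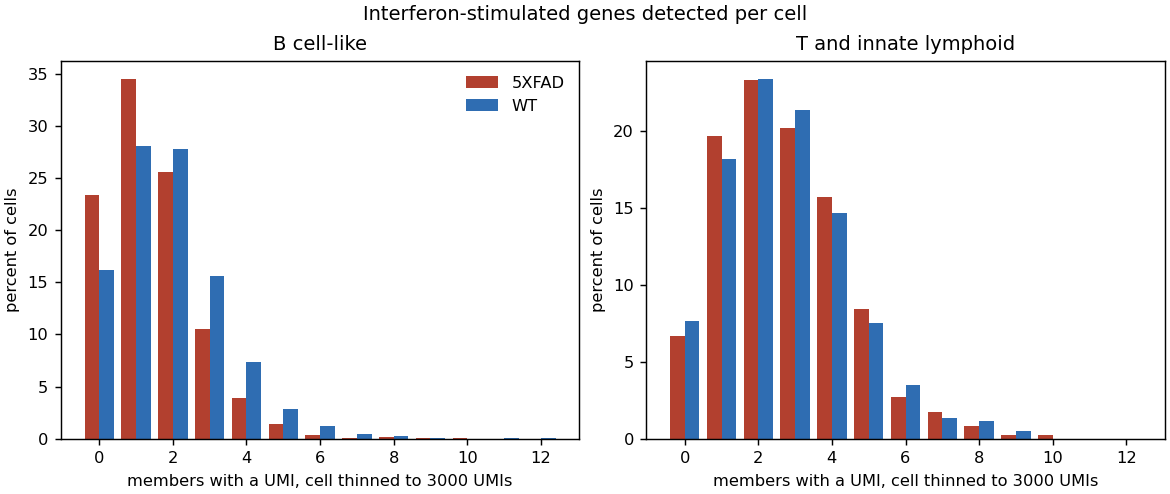
Percent of cells by the number of members with a UMI, each cell thinned to 3000 UMIs (5XFAD red, WT blue). B cell-like cells of 5XFAD have the taller bar at 0 (23.4% against 16.2%), whereas the bars of the 2 libraries in T and innate lymphoid cells nearly coincide.

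The rest of the pathway was read from lists of interferons, receptors and signalling genes, nucleic acid sensors, negative regulators and further interferon-stimulated genes. In the ratio of B over T and innate lymphoid cells these lists were mixed. Past 1.5-fold, 28 of 51 further interferon-stimulated genes were called lower and 11 higher in 5XFAD (median -0.71). The WT counts were 20 and 12 of 49 (median -0.26). Receptor and signalling genes had 4 of 14 lower and 5 higher in 5XFAD, and 6 and 7 in WT. Among 9 sensing genes these counts were 2 and 2, and 2 and 4. Negative regulators had 6 of 10 lower and 1 higher in each library. Of 10 interferon genes, interferon gamma (Ifng) alone had 50 UMIs, with 105 CPM in 5XFAD cells of the T and innate lymphoid class and 89.2 CPM in WT ones, and 0.485 and 1.10 CPM in the B cell-like class. Its genotype ratio in T and innate lymphoid cells was 0.24, with an interval from 0.03 to 0.45. The receptor subunit Ifngr1 was lower in B cell-like cells by a log2 ratio of -3.76 in 5XFAD (118 against 1602 CPM) and -3.63 in WT (113 against 1405 CPM). The endosomal sensing genes Unc93b1 and Tlr7 were higher in B cell-like cells, Unc93b1 by 3.53 and 3.71 and Tlr7 by 3.29 and 3.51 on the log2 scale, the latter on 3 UMIs in each T and innate lymphoid sum.

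In the 5XFAD and WT comparison of B cell-like cells, 3 of 14 receptor and signalling genes were lower past 1.5-fold and 0 higher, where 15% and 4.62% of all genes were; 2 of 9 sensing genes were lower as well, so both lists lie near that share. Irf8, a transcription factor of B cells and myeloid cells, measured 154 and 294 CPM (-0.94), the kinase gene Tyk2 7.75 and 13.1 CPM (-0.76) and Irf4 79.3 and 128 CPM (-0.69). The sensing genes were Mavs (-0.86) and Tmem173, which encodes STING (-0.71). Of 10 negative regulators 4 were lower and 0 higher past 1.5-fold; the phosphatase gene Ptpn6 measured 76.0 and 196 CPM (-1.37), Nlrc5 was -0.83 and Trim21 -0.80. Socs1, an inhibitor of JAK kinases, was higher just short of that fold, at 8.16 against 5.52 CPM (0.56, 0.11 to 1.02). Of 44 further interferon-stimulated genes 20 were lower and 0 higher, led by Slfn5 (-1.58), Gbp5 (-1.25) and Irgm2 (-1.21), and their median was -0.53 against -0.12 for all genes.

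In T and innate lymphoid cells the same lists were mixed. Of 14 receptor and signalling genes 0 passed 1.5-fold. Of 52 further interferon-stimulated genes 6 were lower and 4 higher in 5XFAD, beside 8.47% and 4.16% of all genes, with a median of -0.18 against -0.07; these counts lie near those shares. The largest differences were those of Tor3a (-1.26), and of the GTPases Tgtp2 (1.21, 70 against 26 UMIs) and Tgtp1 (1.05, 58 against 24 UMIs). The chemokine gene Cxcl10 measured 209 CPM in 5XFAD and 106 CPM in WT (0.98, 0.81 to 1.16). Socs1 measured 150 and 102 CPM (0.56, 0.37 to 0.74), and Nlrc5, a transactivator of class I antigen presentation genes, 27.6 and 51.0 CPM (-0.89). Ikbke, a kinase of the sensing pathway, was -1.01.

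The members were also set beside their promoter matches, as a description with no test. In B over T and innate lymphoid cells of WT, 12 members with an ISRE core had a median of -1.09, from -4.30 to 0.56, and 8 without one had a median of -0.91, from -2.34 to -0.27. In 5XFAD the medians were -1.02 and -1.12, with ranges from -3.99 to -0.13 and from -2.67 to -0.40. For GAS letters, 9 members with them had a median of -1.17 in WT and -0.96 in 5XFAD, and 11 without had -0.72 and -1.24. The order of the medians thus differed between the libraries for both motifs. In the genotype ratio of B cell-like cells, 11 members with an ISRE core had a median of -0.47 and 9 without one a median of -0.33. There, 9 members with GAS letters had a median of -0.25, from -0.54 to 0.40, and 11 without had a median of -0.81, from -1.08 to 0.43.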

How the data were processed

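The data are 1 single-cell library per genotype, each from 3 pooled mice. The submitters' processing notes name Cell Ranger 6.0.1 and mm10; later filters on cells are not given in the sources used for this work. The authors deposited an expression table of natural log values, ln(1 + UMIs per 10000), and a metadata table with the count of UMIs and genes, the percent of mitochondrial UMIs (not used) and a cluster number for each cell. A second deposited table, of SCT values for 14128 genes on the natural log scale, served as an alternative. Cells carry the library names WT and AD, of which AD can only be the 5XFAD pool.

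Whole counts were recovered by inverting the deposited natural log with the total per cell: 100% of 11758401 nonzero values came out whole within a relative tolerance of 1e-06, and all 6886 cell sums equalled the deposited count. UMIs were summed per class or cluster and library and scaled to CPM by the total of the sum. Ratios carry exact conditional binomial 95% intervals, levels exact Poisson ones and shares Clopper-Pearson ones. All cover counting error only. The ratio interval was run on simulated Poisson counts, which follow the model that the interval assumes. Such counts leave out the clumping of UMIs in single cells, so the coverage in these data was not tested. With 1 library per genotype no test was made and no p-value is given. Genes needed 50 UMIs over both sums, and a ratio of 1.5-fold in either direction was called. Where a sum was 0 a floor of 3 counts over the sum was used in the alternative without a minimum, and no fold is printed. Differences between classes of the genotype ratio carry an approximate interval from the 4 counts.

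The members, role groups, markers and pathway lists were chosen with earlier results of these data known. All 38 listed genes are accounted for. Values are given in full for the 2 members of each role group with most UMIs and for members whose genotype interval lay beyond 1.5-fold. They are also given for members with enough UMIs in both libraries whose class interval lay beyond 2-fold in both. Of the pathway lists, those with the largest changes are named. Members named beyond this rule were chosen after their values were seen. A listed marker and a listed pathway gene are not reported here and were left out of their sums and counts. Motifs were searched in RefSeq promoters of GRCm38.p6, and transcript lengths are the longest GENCODE transcript per symbol. Calculations used Python 3.11.15, NumPy 2.4.6, SciPy 1.17.1 and pandas 2.3.3. The alternatives covered scaling, UMI minimum, the SCT table, single dominating cells, averaging over cells, transcript length, the fold, the make-up of the classes and the thinning of cells.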

Additional observations from a re-analysis of the deposited data

Results flagged for a closer look

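A group of 3 members had opposite genotype differences in different clusters, each with both counting intervals clear of 0; with 1 library per genotype these contrasts were not tested. Ifi203 was higher in 5XFAD in cluster 13, with a log2 ratio of 0.89 on 52 and 18 UMIs, and lower in cluster 7, at -1.33 on 42 and 97 UMIs. Ifi27l2a was higher in 5XFAD in cluster 10, at 0.56, and lower in cluster 11, at -0.74. Irf1 was higher in 5XFAD in cluster 15, at 1.21 on 74 and 37 UMIs, and lower in cluster 3, at -0.85. In cluster 15 single cells held 17 and 14 of these UMIs, and Irf1 was found in 37.5% of 5XFAD and 43.2% of WT cells. The make-up of that cluster also differed, with 0 UMIs of neutrophil or mast cell markers in 5XFAD and 254 in WT.

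Cluster 15, which belongs to neither class, had levels of 4 members above the interval of each other cluster with both libraries summed. Ifi204 measured 92.3 CPM there, with an interval from 65.3 to 127, where the B cell-like class had 0 and 3 UMIs. Ifih1 measured 87.5 CPM, Ifit1 89.9 CPM and Irgm1 75.3 CPM. The Irgm1 level came mainly from 5XFAD, with 27 UMIs (142 CPM, interval 93.3 to 206). In WT it had 4 UMIs (18.1 CPM, 4.93 to 46.4). The cluster held 32 cells in 5XFAD and 37 in WT. In 1 WT cell lay 22 of the 37 Ifit1 and 20 of the 36 Ifih1 UMIs. Without it Ifit1 measured 37.3 CPM and Ifih1 39.8 CPM. Cluster 10 with all its cells had 40.9 CPM of Ifit1, where 34 of its 54 UMIs lay in 1 5XFAD cell. When each cluster lost its cell with most UMIs of the gene, cluster 15 stayed the highest for both genes. Its macrophage or monocyte markers summed to 6555 CPM in 5XFAD and 10498 CPM in WT, all 8 of them detected. Its summed B cell markers measured 388 and 815 CPM, and 7 of 8 T cell markers were at 0 in 5XFAD and 6 of 8 in WT.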

How the results depend on the processing

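No paired analysis was possible because each genotype is 1 library, and leaving out a replicate was not possible for the same reason. The median of the members in B cell-like cells, 5XFAD over WT, stayed between -0.54 and -0.34 under all alternatives, and that of B over T and innate lymphoid cells between -1.28 and -0.66 in 5XFAD and between -1.17 and -0.46 in WT. Counts moved more. With no minimum of UMIs, 17 members were lower in B cell-like cells of 5XFAD, 7 lower and 5 higher in the T and innate lymphoid class, and 26 lower in B over T of 5XFAD. At a minimum of 20 UMIs, 5 members were lower in the T and innate lymphoid class. At 100 UMIs, 1 was lower and 1 higher there, and 0 were higher in B over T of WT. At a 2-fold limit, 1 member was lower in B cell-like cells of 5XFAD, 1 lower and 0 higher in the T and innate lymphoid class, 11 lower in B over T of 5XFAD and 1 higher in that of WT. Without the cell with most UMIs of each gene, 4 were lower and 1 higher in the T and innate lymphoid class. Centring within 10 groups of length gave 1 lower and 1 higher there. The SCT table, the mean over cells and leaving out cells with 2500 or more genes (added after seeing the data) each gave 1 higher there. In B over T of WT, the SCT table, the B cell-like class without cluster 5 and the T clusters alone each gave 1 higher. Against innate clusters alone, 11 members were lower in 5XFAD, and 10 lower and 5 higher in WT. Without the 5 cells with 19 or more members, also added later, the cluster 10 count of higher members was 0 and its Ifit1 ratio was -0.47. The log2 ratio of mean members detected in B cell-like cells was -0.38, and -0.30 without thinning. The cause of these shifts was not tested. Members under 50 UMIs in a comparison, such as Ifit2, Ifit3 and Usp18, have too few UMIs for a call at this depth.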
